A study of Mus musculus with 8 samples.

Results

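Marker genes of dendritic cells (DCs) were followed in macrophages of adipose tissue (ATMs). The set held 10 genes, Zbtb46, Flt3, Xcr1, Ccr7, Clec9a, Batf3, Dpp4, Cd209a, Siglech and Tcf4, found by exact symbol in the array's annotation among features that carry 1 symbol. All 10 were measured, each by 1 probe set, out of 18820 genes in the table. ATMs came from epididymal fat of male wildtype C57Bl/6 mice and were selected with magnetic beads for the macrophage surface protein F4/80, and each array held RNA pooled from several mice, whose ages are not given in the sources used here. The work was done in 4 experiments, and in each of them a pool from obese mice on a high-fat diet (HFD) and a pool from lean mice on a low-fat diet (LFD) went on 1 array apiece. Fat made up 45% of the energy of the HFD in experiments 1 and 3, 60% of it in experiments 2 and 4, and 10% of the energy of the LFD. The labels give 16 weeks of diet in experiments 1 and 3, 15 weeks in experiment 2 and 10 weeks in experiment 4. F4/80 is also carried by some cells other than macrophages, and a pool is a mixture of cells, so fewer cells of a type and less RNA per cell cannot be told apart.

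DCs take up antigen, carry it to lymph nodes and present it to T cells. Conventional DCs (cDCs) grow under the cytokine Flt3 ligand and divide into cDC1, which cross-present antigen to CD8 T cells, and cDC2, which mainly serve CD4 T cells, whereas plasmacytoid DCs (pDCs) are specialised in type I interferon. In tissues they are hard to separate from macrophages, since both can carry CD11c, MHC class II and even F4/80. The 10 genes are used as DC markers, though some of them, such as Tcf4, Siglech and Dpp4, are also found in other cells.

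Levels are on the deposited log2 scale, where 1 unit is a doubling, and a level is called dim where it lies under 4.32, the median of all deposited values. Levels of different genes were not compared, since each comes from its own probes. Flt3, Xcr1 and Clec9a were dim on all 8 arrays, as were 38.7% of all genes. Zbtb46, Ccr7, Batf3, Cd209a and Tcf4 were above the limit on all 8 arrays, as were 49.5% of all genes, and Dpp4 and Siglech were above it on 6. The differences given for Flt3, Xcr1 and Clec9a are therefore between dim values.

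**Figure D1:**
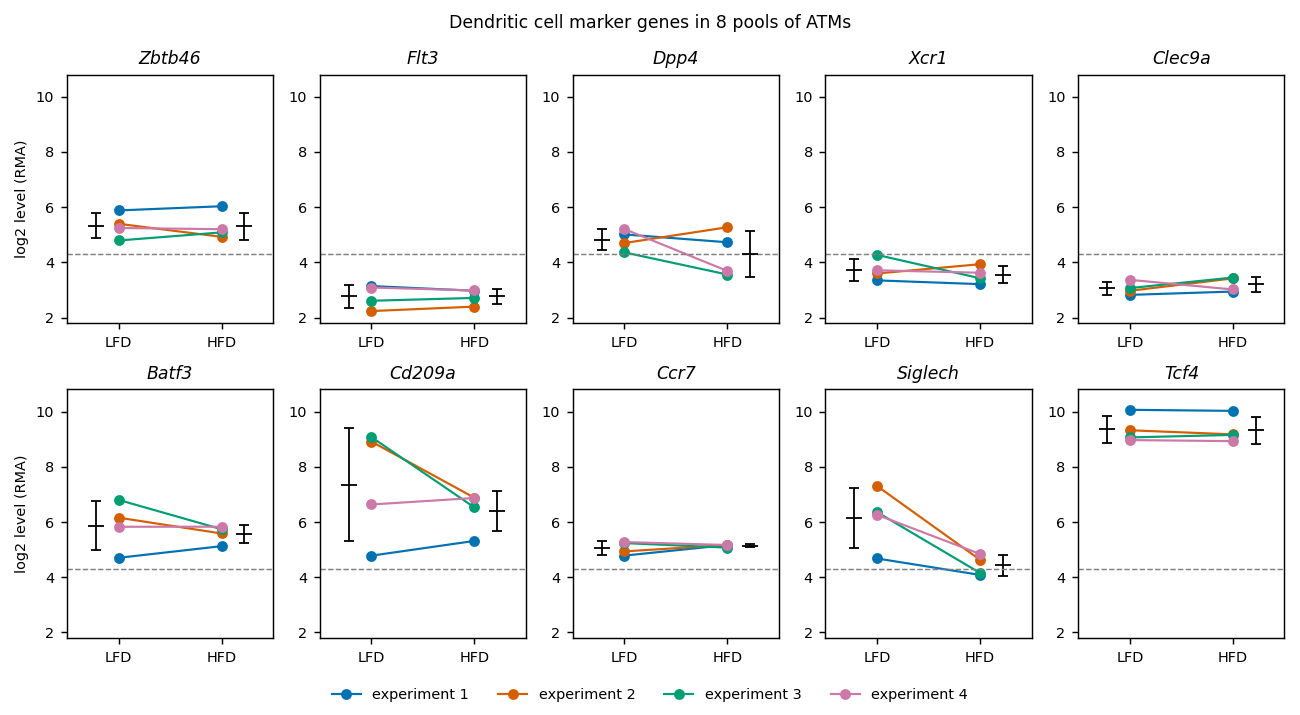
Levels (deposited log2 values, vertical axis) of the 10 genes in each pool, with coloured lines that join the LFD and HFD pools of an experiment, the mean and SD of each diet in black, and the dim limit as a dashed line. Siglech lay lower in HFD than in LFD pools, with 1 overlap between the diets, and Flt3, Xcr1 and Clec9a stayed under the limit.

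None of the 10 genes passed an adjusted p of 0.05 between HFD and LFD (limma, Benjamini-Hochberg adjustment over all 18820 genes), and neither did any other gene, so that the share of all genes called was 0%. With experiment as a block the share was again 0%. At an unadjusted p under 0.05 limma gave 1 of the 10, Siglech, lower in ATMs from obese mice, beside 1.51% of all genes lower and 3.3% higher. With the block the same count was 1 of 10, again Siglech, beside 4.16% of all genes lower and 7.95% higher. The mean difference (HFD minus LFD) was below 0 for 8 of the 10 genes, against 48.7% of all genes, and its median was -0.11 against 0.0049 over all genes. Among the 8, Flt3 (-0.0031), Zbtb46 (-0.018) and Tcf4 (-0.034) were close to 0, and Flt3 and Xcr1 were dim on every array. The genes lower in obese pools numbered 5, 5, 6 and 8 of the 10 in experiments 1, 2, 3 and 4. By experiment, the median over the 10 genes was 0.041, 0.0064, -0.48 and -0.097 in experiments 1, 2, 3 and 4. Siglech alone was lower in all 4 experiments, a pattern shown by 7.43% of all genes, and none of the 10 was higher in all 4, which 11% of all genes were.

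**Figure D2:**
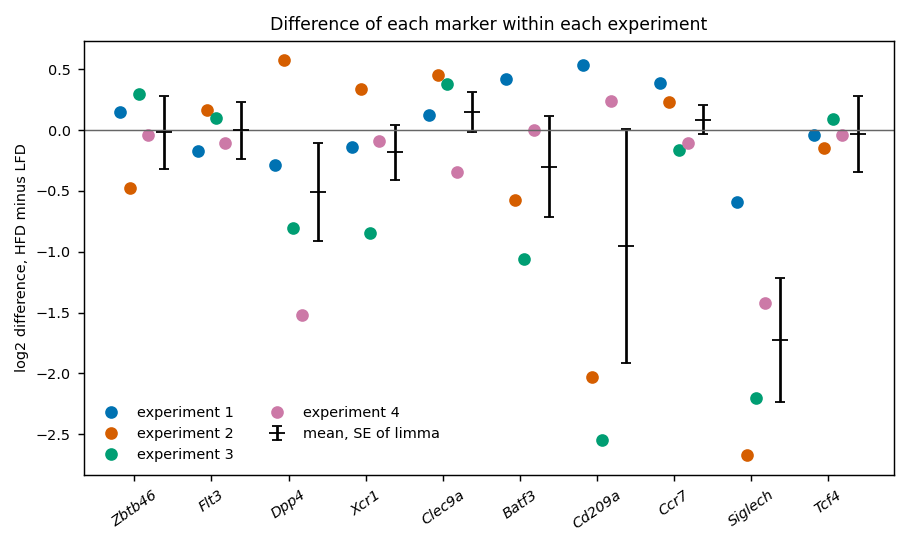
Difference in level (HFD minus LFD, log2) of each of the 10 genes, with 1 point per experiment and the mean with its SE from limma. The points of Siglech all lie below 0, from -2.67 to -0.59, and those of Cd209a run from -2.55 to 0.53.

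Siglech, which encodes an endocytic receptor of mouse pDCs that signals through the adaptor DAP12 and is also found on certain macrophages, had the lowest difference of the 10. Its level in lean pools was 4.68, 7.30, 6.36 and 6.26 in experiments 1, 2, 3 and 4. In obese pools it was 4.09, 4.63, 4.16 and 4.84. The lean pool of experiment 1 stood apart from the other lean pools and lay under the obese pool of experiment 4, which was the only overlap between the diets (lower levels with no overlap were found for 0.68% of all genes). The means were 6.15 ± 1.09 (SD, n = 4 pools) in lean and 4.43 ± 0.37 (SD, n = 4 pools) in obese mice, a log2 difference of -1.72 (SE 0.51), with an adjusted p of 0.982 in limma. Of all genes, 0.0425% had a lower difference. With experiment as a block the SE was 0.34 and the adjusted p 0.163. The difference was -0.59 in experiment 1, -2.67 in experiment 2, -2.20 in experiment 3 and -1.42 in experiment 4. The obese pools of experiments 1 and 3 were dim. Experiments 2 to 4 leave out that lean pool of experiment 1, so over them the diets did not overlap, as for 4.52% of all genes. Over these experiments the difference was -2.10 (SE 0.32, adjusted p = 0.246, limma).

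The promoter of Siglech is shown because this gene alone of the 10 had 1 sign of difference in all 4 experiments and because the product of Tcf4, another of the 10 genes, belongs to the E proteins, which bind the E-box. The window runs from 250 bases before to 50 after an annotated start in RefSeq (GRCm38.p6) and is chr7:55767934-55768233 on the plus strand. The gene is listed from position 55768154 on, so the start used lies a little inside it. The promoter window of Cd209a, the gene with the widest range of levels of the 10, is given beside it and is chr8:3748935-3749234 on the minus strand. Both are written 5′ to 3′, and capitals mark each match to the E-box CANNTG, which reads the same on both strands.
Siglech: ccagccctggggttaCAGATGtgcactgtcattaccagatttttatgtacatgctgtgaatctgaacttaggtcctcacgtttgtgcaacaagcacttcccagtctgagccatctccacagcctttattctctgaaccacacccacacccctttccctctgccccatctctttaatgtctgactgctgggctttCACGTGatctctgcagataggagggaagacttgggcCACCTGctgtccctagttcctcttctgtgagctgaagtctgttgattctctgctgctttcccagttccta
Cd209a: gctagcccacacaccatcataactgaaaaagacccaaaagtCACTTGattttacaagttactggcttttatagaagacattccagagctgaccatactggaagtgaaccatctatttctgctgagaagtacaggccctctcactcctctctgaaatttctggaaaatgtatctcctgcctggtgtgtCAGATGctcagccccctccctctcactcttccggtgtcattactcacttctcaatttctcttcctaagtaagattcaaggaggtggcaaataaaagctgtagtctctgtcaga
Siglech had 3 matches, which begin at positions -235, -56 and -20 from the start used, the last of them inside the listed gene, and Cd209a had 2. Of 32851 windows of this length in RefSeq, 72.3% held at least 1 match and 17.6% held 3 or more. Windows were matched by symbol for 8 of the 10 genes, all but Ccr7 and Tcf4, and each of the 8 held at least 1 match. The windows of Zbtb46, Dpp4 and Siglech were set at a start inside the listed gene. A match is a stretch of letters and not a measured binding site.

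Tcf4, which encodes E2-2, the factor that sets and keeps the pDC state, had close levels in both diets. Its level was 10.06, 9.32, 9.06 and 8.97 in lean pools of experiments 1 to 4. In obese pools of the same experiments it was 10.02, 9.17, 9.15 and 8.93. Both pools of experiment 1 were the highest, and the pools of an experiment lay within 0.15 of each other. The difference was -0.034 (SE 0.31, adjusted p = 0.999, limma), and with the block the SE was 0.080. Tcf4 is broadly expressed, also outside DCs. The mean level of 18 endothelial genes, of which 17 were above the dim limit on all 8 arrays, was likewise highest in experiment 1, at 10.53 in the lean and 10.18 in the obese pool, and ran from 5.72 to 9.01 in the other lean pools and from 7.35 to 7.69 in the other obese pools. The part of these cells in the level of Tcf4 was not tested.

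Of 18 other pDC genes measured (Runx2 and Klk1 of the list were not analysed here), 9 were dim on all 8 arrays, among them Spib and Bcl11a, which encode transcription factors of pDCs, and Ccr9, a homing receptor. A further 8 were above the limit on all 8 arrays. None was called, 2 were higher and 2 lower in all 4 experiments, and the median difference was -0.068. Ptprs, a receptor phosphatase of pDCs, was higher in obese mice by 0.93 (SE 0.26) and Cobll1 was lower by a difference of -0.38 (SE 0.55), each in all 4 experiments and with an adjusted p of 0.982 or more. In the blocked fit their SEs were 0.10 and 0.095, with adjusted p of 0.065 and 0.222 (limma). Bst2, which encodes the surface protein tetherin, had levels between 8.27 and 9.41 and a difference of -0.10 (SE 0.30). The mean level of the 18 genes ran from 4.51 to 4.84 in lean and from 4.44 to 4.77 in obese pools, which overlap.

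Cd209a, which encodes a mouse relative of the C-type lectin DC-SIGN and is listed here as a cDC2 marker, varied more than any other of the 10 genes. Its level was 4.78, 8.91, 9.08 and 6.63 in lean pools of experiments 1 to 4. In obese pools it was 5.32, 6.88, 6.53 and 6.87. Lean pools of experiments 2 and 3 were the highest, the lean pool of experiment 1 was the lowest of all 8, and the diets overlapped. The means were 7.35 ± 2.04 (SD, n = 4 pools) and 6.40 ± 0.74 (SD, n = 4 pools), a difference of -0.95 (SE 0.96, adjusted p = 0.999, limma). The difference was -2.03 and -2.55 in experiments 2 and 3, but 0.53 and 0.24 in experiments 1 and 4. Without experiment 1 it was -1.45 (SE 0.65, adjusted p = 0.603). Leaving out single arrays moved it from -1.81 (without the lean pool of experiment 1) to -0.38 (without the lean pool of experiment 3), and without the lean pool of experiment 2 it was -0.43. Experiments 2 and 3 used HFDs with different shares of fat, 60% and 45%, and so did experiments 1 and 4.

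The pattern ran through the Cd209 gene family, whose other measured members encode related C-type lectins. The difference was below 0 for all 7 genes, from -0.95 for Cd209a to -0.40 for Cd209f, with Cd209b at -0.64, Cd209c at -0.84, Cd209d at -0.68, Cd209e at -0.79 and Cd209g at -0.77, and none was called. For Cd209b and Cd209d the size of the difference rested on single pools, and for Cd209f its direction did. Without the lean pool of experiment 2 the difference of Cd209b was -0.013, without that of experiment 3 the difference of Cd209d was -0.011, and Cd209f was above 0 without the lean pool of experiment 2 (0.12) or 3 (0.14) or the obese pool of experiment 1 (0.033). Among them 6, all but Cd209e, were lower in experiments 2 and 3 and higher in experiments 1 and 4, as were 5.61% of all genes, a pattern chosen after its values were seen. The mean level of the 7 genes was 4.72, 8.72, 8.75 and 6.77 in lean pools and 5.58, 7.05, 6.37 and 7.05 in obese pools of experiments 1 to 4. These genes lie close to each other in sequence, and how far their probe sets share signal was not tested. The mean level of 11 macrophage genes, all above the dim limit on all 8 arrays, was 7.74 in the lean and 8.68 in the obese pool of experiment 1 and between 9.92 and 10.58 in the other pools. Adgre1, which encodes F4/80 itself, was at 6.54 and 8.58 on the arrays of experiment 1. The lean pool of experiment 1 was thus the lowest for macrophage genes, for Cd209a and for the family, and the part of its make-up in these values was not tested.

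**Figure D3:**
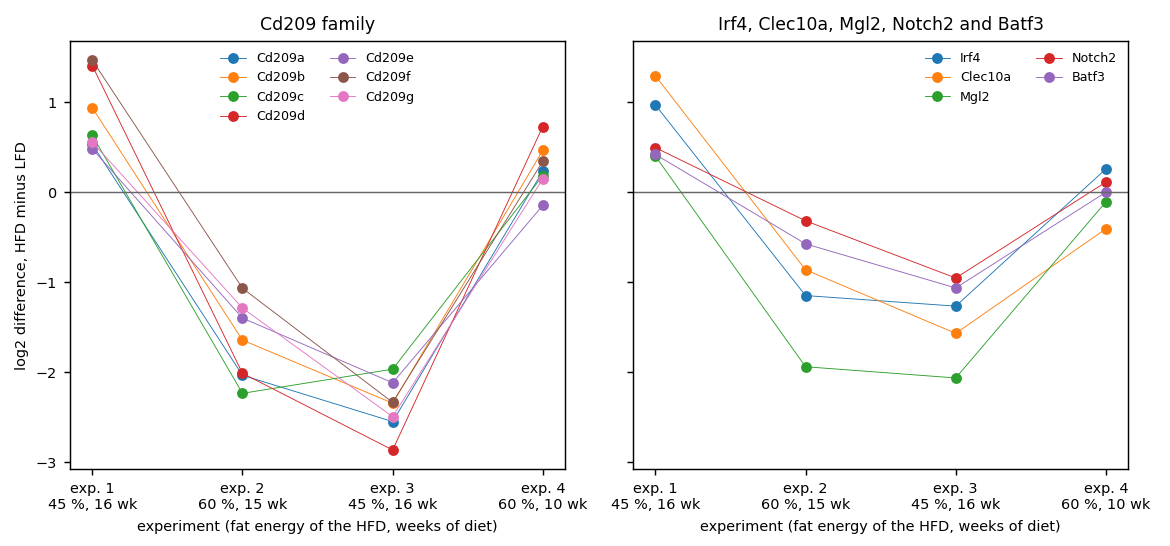
Difference (HFD minus LFD, log2) in each experiment for the 7 Cd209 genes and for Batf3, Irf4, Clec10a, Mgl2 and Notch2, with thin lines that only join the values of 1 gene. Values of the Cd209 family lie below 0 in experiments 2 and 3, and Clec10a, Mgl2 and Notch2 were picked for the plot after their values were seen.

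Of 9 other cDC2 genes, 6 were above the dim limit on all 8 arrays and 2 were dim on all. None was called, the median difference was -0.16, and 1 was higher in all 4 experiments. That gene was Sirpa, an inhibitory receptor that marks cDC2 and also macrophages, with a difference of 0.70 (SE 0.59), which was 0.12 without the lean pool of experiment 1. With the block the SE of Sirpa was 0.21 and its adjusted p 0.289 (limma). Irf4, which encodes a transcription factor that cDC2 need, had differences of 0.97, -1.15, -1.26 and 0.26 in experiments 1 to 4 and a mean of -0.29 (SE 0.67, adjusted p = 0.999). Mgl2 and Clec10a, lectin genes of cDC2 and of tissue macrophages that were picked after their values were seen, were higher in obese mice in experiment 1, with differences of 0.40 and 1.30. They were lower in experiment 2 (-1.94 and -0.86), experiment 3 (-2.06 and -1.57) and experiment 4 (-0.11 and -0.40).

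Xcr1 and Clec9a, the genes most used to identify cDC1, had overlapping levels in the diets, all of them dim. Xcr1 encodes the receptor for the chemokine XCL1, and its levels ran from 3.35 to 4.27 in lean and from 3.21 to 3.93 in obese pools, a difference of -0.18 (SE 0.23). Clec9a encodes DNGR-1, a receptor for actin exposed by dead cells, and ran from 2.82 to 3.37 in lean and from 2.94 to 3.45 in obese pools, a difference of 0.15 (SE 0.17). For both the diets overlapped, the sign differed between experiments and the adjusted p was 0.999 in limma.

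Batf3, which encodes an AP-1 family factor that cDC1 require, was by contrast above the limit in every pool. Its level was 4.70, 6.16, 6.80 and 5.83 in lean pools of experiments 1 to 4. In obese pools it was 5.13, 5.59, 5.74 and 5.83. The spread lay in the lean pools, from the lowest value of all in experiment 1 to the highest in experiment 3, while the obese pools lay within the lean range. The difference was -0.30 (SE 0.42, adjusted p = 0.999, limma). By experiment it was 0.42, -0.57, -1.06 and 0.0020, the order also seen for Cd209a and Irf4. Csf1r and the mean of the 11 macrophage genes had this order too, so it was not particular to DC genes. The order was picked after its values were seen, and 5.61% of all genes had these signs. Without experiment 1 the mean difference was -0.54 (SE 0.25, adjusted p = 0.611), and without the lean pool of experiment 3 it was 0.0070, so its direction rested on that pool.

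Of 12 other cDC1 genes measured (Snx22 was not analysed here), 8 were above the dim limit on all 8 arrays. None was called, 3 were higher and 1 lower in all 4 experiments, and the median difference was 0.052. Cadm1, an adhesion molecule of cDC1 that many other cells also carry, was higher in obese mice by 2.03 (SE 0.55), Rab7b, a small GTPase of endosomes, by 1.14 (SE 0.85) and Id2, an inhibitor of E proteins, by 0.23 (SE 0.29), with adjusted p of 0.982 or more. With experiment as a block the SEs were 0.29, 0.28 and 0.085, with adjusted p of 0.090, 0.220 and 0.375 in limma. Irf8, which cDC1 need and macrophages also express, had a difference of 0.057 (SE 0.45). Leaving out single arrays moved Rab7b between 0.34 and 1.64, the lower value without the lean pool of experiment 1, and Id2 between 0.029 and 0.46.

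Zbtb46, a zinc-finger repressor made by cDCs and their committed precursors and also by endothelial cells, had a difference close to 0 whose sign varied between experiments. Its level was 5.88, 5.40, 4.79 and 5.24 in lean pools of experiments 1 to 4. In obese pools it was 6.03, 4.92, 5.08 and 5.20. Both pools of experiment 1 were the highest, and the diets overlapped. The difference was -0.018 (SE 0.30, adjusted p = 0.999, limma), made of 0.15, -0.47, 0.29 and -0.043 by experiment. The endothelial mean, given above, was also highest in experiment 1, and its differences had the sign of those of Zbtb46 in experiments 2, 3 and 4 (-0.82, 1.97 and -1.65) but not in experiment 1 (-0.35). The part of endothelial cells in the level of Zbtb46 was not tested.

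Flt3, the receptor for Flt3 ligand, was dim throughout, from 2.24 to 3.14 in lean and from 2.40 to 2.98 in obese pools, with a difference of -0.0031 (SE 0.23, adjusted p = 0.999). Dpp4 encodes CD26, a surface peptidase of cDC1 that T cells and progenitor cells of fat also carry. Its level was 5.01, 4.70, 4.36 and 5.21 in lean pools of experiments 1 to 4. In obese pools it was 4.73, 5.27, 3.56 and 3.69. The obese pools of experiments 3 and 4 were dim and lay under every lean pool, while the obese pool of experiment 2 was the highest of all. The difference was -0.51 (SE 0.40, adjusted p = 0.991, limma), made of -0.28, 0.57, -0.80 and -1.52 by experiment, and it ran from -0.83 to -0.26 when single arrays were left out. The mean of 6 mesothelial genes had differences of -0.13, 0.72, 0.082 and -0.81, with levels from 3.84 to 4.87 in lean and from 3.92 to 4.92 in obese pools. Of these 6 genes, 1 was above the dim limit on all 8 arrays and 3 on at least 4, so their mean is partly one of dim values. The mean of 12 genes of fibroblasts and progenitors had levels from 5.45 to 7.39 in lean and from 6.28 to 7.68 in obese pools, with differences of -0.091, 0.40, 0.83 and -0.46. These had the sign of Dpp4 in experiments 1, 2 and 4 and the opposite sign in experiment 3. The mean of 10 T cell genes had differences of 0.19, 0.13, 0.18 and 0.021, with the sign of Dpp4 in experiment 2 only. Of these genes Il7r had the highest mean difference, 2.91, while the median over the 10 was -0.099. The part of these cells in the level of Dpp4 was not tested.

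**Figure D4:**
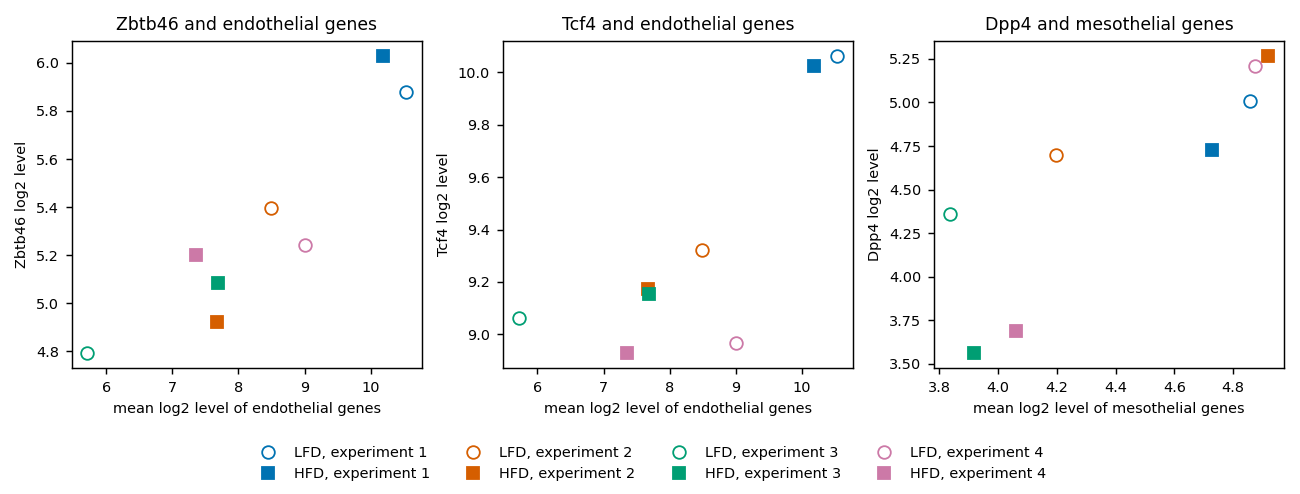
Level (log2) of Zbtb46 and of Tcf4 against the mean level of 18 endothelial genes, and of Dpp4 against the mean level of 6 mesothelial genes, with 1 point per pool, open circles for LFD, squares for HFD and a colour per experiment. Both pools of experiment 1 lie at the upper right for Zbtb46 and Tcf4, and the 2 lowest values of Dpp4, 3.56 and 3.69, are those of obese pools with mesothelial means of 3.92 and 4.06, while the lean pool with the lowest mesothelial mean, 3.84, had Dpp4 at 4.36. The mesothelial means named here lie under the dim limit of 4.32.

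Of 17 other genes shared by cDCs, 6 were above the dim limit on all 8 arrays and 6 were dim on all. None was called, 2 were higher and 2 lower in all 4 experiments, and the median difference was -0.060. Itgax, which encodes CD11c, the integrin used to identify both DCs and macrophages of obese fat, had levels of 4.51, 5.63, 6.75 and 7.38 in lean and 8.19, 8.27, 9.79 and 9.94 in obese pools. Every obese pool lay above every lean pool, which held in the same direction for 1.19% of all genes. The difference of 2.98 (SE 0.70) was the highest in the DC lists, with an adjusted p of 0.982 in limma and 0.051 with the block. Among 22 alternative settings Itgax was called only with the block and without dim genes. That fit tested 10629 genes and called 23 higher and 2 lower. Ap1s3, a subunit of a vesicle adaptor, was higher by 1.44 (SE 0.54), and Kmo, an enzyme of kynurenine metabolism, had a difference of -0.79 (SE 0.69), from -1.37 to -0.36 when single arrays were left out. For Ap1s3 and Kmo the blocked fit gave SEs of 0.20 and 0.34, with adjusted p of 0.089 and 0.445 (limma).

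Ccr7, the chemokine receptor that guides mature DCs to lymph nodes, had a narrow range. Its level was 4.78, 4.94, 5.24 and 5.27 in lean pools of experiments 1 to 4. In obese pools it was 5.17, 5.17, 5.07 and 5.17, and 3 of these are the same deposited value. The obese pools lay inside the range of the lean pools. The difference was 0.086 (SE 0.12, adjusted p = 0.999, limma), above 0 in experiments 1 and 2 and below 0 in experiments 3 and 4, and without experiment 1 it was -0.013.

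Of 20 other genes of mature DCs (Il4i1 and Cacnb3 were not analysed here), 15 were above the dim limit on all 8 arrays. None was called, 3 were higher and 1 lower in all 4 experiments, and the median difference was -0.017. Ccl22, a chemokine of mature DCs and activated macrophages, had levels from 4.53 to 5.46 in lean and from 5.90 to 6.99 in obese pools without overlap. Its difference was 1.55 (SE 0.31), with an adjusted p of 0.982 and, with the block, 0.058, and it was called with the block once dim genes were left out. Serpinb6b, a protease inhibitor, was higher by 1.59 (SE 0.63) and Cd83, an activation marker, by 0.82 (SE 0.70), which was 0.18 without the lean pool of experiment 1. The blocked SEs of Serpinb6b and Cd83 were 0.62 and 0.21, with adjusted p of 0.398 and 0.224 (limma).

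**Figure D5:**
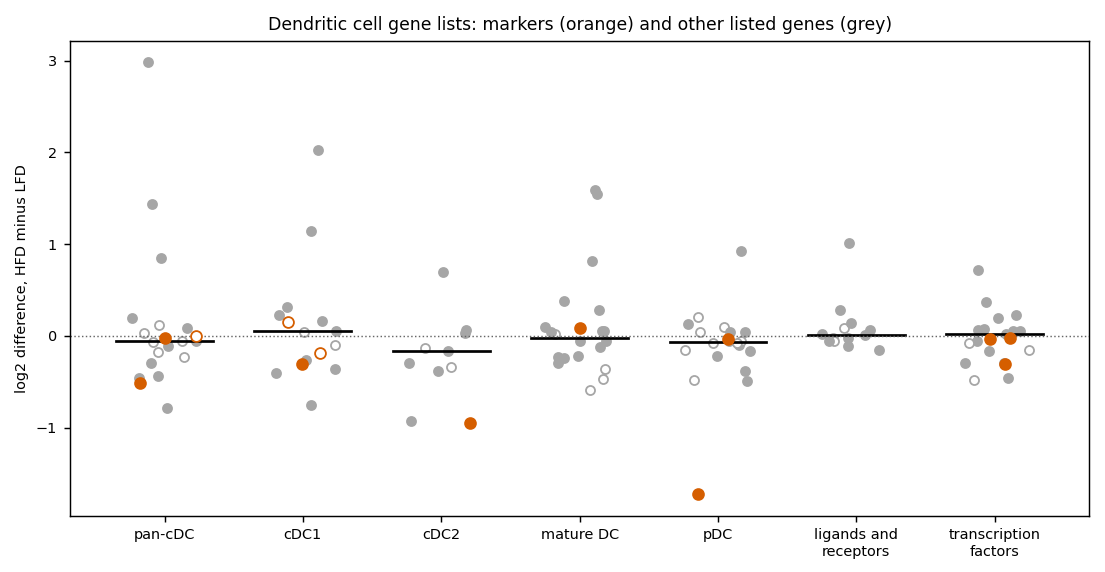
Mean difference (HFD minus LFD, log2) of every measured gene in 7 DC lists, with the 10 genes in orange, others in grey, open symbols for genes under the dim limit on all 8 arrays and black bars for the median of the other genes. The medians lie between -0.16 and 0.052, while Siglech and Itgax lie at -1.72 and 2.98.

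The ligands of the receptors among the 10 genes were measured in the same pools. Flt3l, the ligand of Flt3, had a difference of -0.15 (SE 0.15), below 0 in all 4 experiments. Its blocked SE was 0.087 (adjusted p = 0.584, limma). Xcl1, the ligand of Xcr1, was dim on all 8 arrays with a difference of -0.018 (SE 0.19), and Ccl19, a ligand of Ccr7, had one of -0.021 (SE 0.65). Csf2ra, a receptor chain for the growth factor GM-CSF, was higher by 1.01 (SE 0.71), which was 0.36 without the lean pool of experiment 1. With the block the SE of Csf2ra was 0.21 and its adjusted p 0.170 (limma). In this list of 13 measured ligands, receptors and signal transducers (Ccl21a was not analysed here), none was called, 1 was higher and 1 lower in all 4 experiments, and the median difference was 0.013. Of 17 other transcription factors of DCs, 12 were above the dim limit on all 8 arrays and none was called, with 2 higher and 1 lower in all 4 experiments and a median difference of 0.022. Spi1, which encodes PU.1, was higher by 0.72 (SE 0.79), and Runx3 had a difference of -0.30 (SE 0.11), with adjusted p of 0.999 and 0.982. With the block their SEs were 0.33 and 0.10, and the adjusted p 0.487 and 0.336 (limma). Over all 97 measured genes of the 7 lists other than the 10, none was called, and before adjustment p was under 0.05 for 6 that were higher and 2 that were lower in limma, against 3.3% and 1.51% of all genes.

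Lists of genes of other blood cells were measured in the same pools. The mean level of 10 T cell genes ran from 4.17 to 4.72 in lean and from 4.36 to 4.74 in obese pools. Of these genes 4, Cd3d and Cd3g included, were dim on all arrays, and 5 were above the limit on at least 4. The mean of 8 B cell genes ran from 4.66 to 4.96 in lean and from 4.68 to 4.83 in obese pools. Among them 5, Cd79a, Ms4a1 and Pax5 included, were dim on all arrays, and 3 were above the limit on all 8. The means of 8 NK cell, 5 eosinophil and 6 neutrophil genes were under the dim limit in every pool, and that of 8 monocyte genes ran from 6.00 to 6.56 in lean and from 5.74 to 6.45 in obese pools. The endothelial genes Pecam1 and Cdh5 had differences of -0.14 (SE 1.02) and -0.094 (SE 1.07), and Adgre1 and Csf1r had 0.61 (SE 0.98) and 0.14 (SE 0.73).

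The share of fat in the HFD was compared between experiments as an interaction. The interaction was called for none of the 10 genes, with a smallest adjusted p of 1.00 (limma), and 0% of all genes were called and 1.2% had an unadjusted p under 0.05. Each HFD was used in only 2 experiments, and those with the 45% HFD lasted 16 weeks and those with the 60% HFD 15 and 10 weeks, so fat content and length of diet cannot be told apart. For Siglech both pairs of experiments gave lower levels in obese mice, -0.59 and -2.20 with the 45% HFD and -2.67 and -1.42 with the 60% HFD.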

How the data were processed

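RNA of ATM pools, 4 from HFD-fed and 4 from LFD-fed mice, was measured on 8 Affymetrix arrays. The authors deposited log2 values which their processing notes name as RMA (background correction, quantile normalisation and summary per probe set) (version not given). Student's t test is named for statistics in the study, and the array test is not given in the sources used here. Array medians ran from 4.25 to 4.39, and the number of arrays limits the precision.

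Gene names came from the platform annotation, which can be old. Of 35556 features, 21218 had 1 symbol, 1881 several and 12457 none, giving 18820 genes, each by its brightest probe set. Of these, 18790 matched RefSeq by Entrez ID, the 10 marker genes included. Values were used as deposited.

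HFD and LFD were compared with limma 3.58.1 (lmFit and eBayes, R 4.3.3), two-sided, with Benjamini-Hochberg adjustment over all genes at 0.05. The fit was checked on simulated data. Nothing in the labels beyond the experiment number and pooling says how independent the pools are, so p-values measure only the spread between pools. The experiment number in the labels pairs the arrays: deviations from the diet means of arrays with the same number correlated at r of 0.889, 0.357, 0.652 and 0.186 over genes. Values from the blocked fit stand beside those results where they bear on a call. They also stand beside the named DC list genes of 1 sign in all 4 experiments. The marker genes, the lists of DC and other cell type genes, and the tests were chosen with earlier results of these data known. Besides the 10 genes, the text names up to 3 genes per DC list with the largest mean difference among those above the dim limit on at least 4 arrays and of 1 sign in all 4 experiments, and Itgax, Irf8, Irf4, Bst2, Flt3l, Xcl1, Ccl19, the Cd209 family, Adgre1, Csf1r, Pecam1 and Cdh5. Clec10a, Mgl2, Notch2, Cd4, Cd79b, Il7r, Blnk and dim markers named as examples were chosen after their values were seen. The alternatives comprised experiment as a fixed or as a random block, omission of single arrays, of experiment 1 or of experiment 4, each HFD alone, 2 rescalings, a filter on dim genes, the mean of probe sets, a trended prior and the methods' t-test.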

Additional observations from a re-analysis of the deposited data

Results flagged for a closer look

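Zbtb46 had opposite signs with the 2 HFDs. Its difference was above 0 in both experiments with the 45% HFD (0.15 and 0.29) and below 0 in both with the 60% HFD (-0.47 and -0.043), and the 60% minus 45% difference of -0.48 had an adjusted p of 1.00 in limma. The 60% experiments were also shorter (15 and 10 weeks, against 16), and the fat content and the length of diet cannot be told apart.

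In 10 of 82 sets of 4 pools (1 gene and 1 diet each) a single pool lay far from the other 3 by Dixon's test at the 95% level, where chance gives about 1 in 20. Among the 10 marker genes this held for Ccr7, whose obese pool of experiment 3 was lowest at 5.07, but the other 3 obese pools hold the same deposited value, 5.17, so that any other value would have met this test. The other 9 all lay on arrays of experiment 1. In its lean pool, Sirpa (8.16), Cd83 (7.50) and Spi1 (6.90) were lowest. In its obese pool, Rab7b (8.00), Irf8 (6.73), Irf4 (5.04) and Csf1r (9.67) were lowest, and Flt3l (6.51) and Pecam1 (11.10) highest. The 82 sets share the same 8 arrays, so the flags are not independent and their number cannot be read against 1 in 20.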

How the results depend on the processing

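None of the 10 marker genes passed an adjusted p of 0.05 in any limma alternative. The block, which takes up the pairing of pools by experiment, left 0 genes called in each direction, and the median difference of the 10 stayed at -0.11. With the block and without dim genes, 23 genes were called higher and 2 lower, Itgax (2.98) and Ccl22 (1.55) among them. That fit tested 10629 genes, which held 7 of the 10 marker genes. The methods' t-test gave 524 genes higher and 286 lower, and 1 of the 10, before adjustment. Leaving out each array in turn called 0 genes in either direction and moved the median of the 10 between -0.21 and -0.064. Siglech stayed below 0 in every alternative, from -2.21 to -1.34, with adjusted p from 0.120 to 1.00. Of 214 values of marker genes under 22 settings, 25 changed sign.

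The sign changed with the 45% HFD alone for Zbtb46 (0.22), Tcf4 (0.027), Irf8 (-0.013), Pecam1 (0.89) and Cdh5 (1.16), and with the 60% HFD alone for Flt3 (0.027), Xcr1 (0.12), Bst2 (0.17), Xcl1 (0.32), Ccl19 (0.0091) and Csf1r (-0.099). It changed without experiment 1, with or without the block, for Flt3 (0.053), Ccr7 (-0.013), Xcl1 (0.22), Ccl19 (0.076) and Csf1r (-0.21), and without experiment 4 for Flt3 (0.031), Ccl19 (0.22), Pecam1 (0.35) and Cdh5 (0.46). A repeated quantile normalisation gave Flt3 at 0.0099. Leaving out 1 array gave a range across 0 for Zbtb46 (-0.26 to 0.17), Flt3 (-0.18 to 0.12), Tcf4 (-0.27 to 0.20), Ccr7 (-0.0052 to 0.16), Batf3 (-0.69 to 0.0070), Cd209f (-1.45 to 0.14), Irf4 (-0.94 to 0.11), Irf8 (-0.31 to 0.37), Spi1 (-0.086 to 1.08), Bst2 (-0.27 to 0.079), Cobll1 (-0.82 to 0.018), Xcl1 (-0.14 to 0.13), Ccl19 (-0.45 to 0.50), Adgre1 (-0.36 to 1.12), Csf1r (-0.58 to 0.50), Pecam1 (-1.02 to 0.52) and Cdh5 (-1.07 to 0.55). The cause was not tested. Differences of dim genes are limited by signal over background.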

Other observations

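Of 10 T cell genes 1 was lower and 1 higher in obese mice in all 4 experiments, and the same held for 8 B cell genes. Over all genes the shares were 7.43% lower and 11% higher, so these counts do not set the lists apart. Cd4, a T cell co-receptor also found on pDCs and macrophages, was at 4.94, 7.47, 6.18 and 6.77 in lean and 4.39, 5.61, 5.55 and 5.64 in obese pools of experiments 1 to 4, a difference of -1.04 (SE 0.55, adjusted p = 0.982, limma). Cd79b, a chain of the B cell receptor complex, was at 4.78, 5.91, 7.03 and 6.00 in lean and 4.37, 5.31, 5.31 and 5.21 in obese pools, a difference of -0.88 (SE 0.46, adjusted p = 0.982). In the same lists Il7r, the receptor chain for interleukin 7, was higher in all 4 experiments by 2.91 (SE 0.93, adjusted p = 0.982), and Blnk, a signalling adaptor, by 1.15 (SE 0.78, adjusted p = 0.990). Of the 10 T cell genes 4 were dim on all 8 arrays, among them Cd3d, Cd3g and Cd8a, and of the 8 B cell genes 5 were, among them Cd79a, Ms4a1 and Pax5. Cd4, Cd79b, Il7r and Blnk were chosen after their values were seen.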
